A study of Saccharomyces cerevisiae with 25 samples.

Results

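The genes described here encode 10 enzymes or enzyme subunits of the mitochondrial tricarboxylic acid (TCA) cycle of budding yeast, Saccharomyces cerevisiae: CIT1, ACO1, IDH1, IDH2, KGD1, KGD2, LSC1, LSC2, FUM1 and MDH1. They were taken by gene name from the deposited expression table, which held all 10 among 6650 named genes. The strain was BY4741, a haploid laboratory strain of mating type a labelled wild type, in which HIS3, LEU2, MET17 and URA3 are deleted in every group. Cells from high-phosphate medium gave 1 library at 0 min, and cells washed and moved to medium without phosphate gave 24 libraries, taken every 15 min up to 360 min. Each time had 1 library of a single course, so 4 successive times were read as a group in place of replicates, which gave 6 windows (15 to 60 min, then 75 to 120 min, and on to 315 to 360 min), and p-values measure only the spread between serial samples of that course.

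The TCA cycle oxidises acetyl groups to carbon dioxide and passes the electrons to the respiratory chain. In yeast growing on glucose it runs far below capacity, and its early steps, from citrate synthase to isocitrate dehydrogenase, then mainly supply 2-oxoglutarate for the synthesis of glutamate. These early genes are known targets of the retrograde regulators Rtg1 and Rtg3, which respond to the state of the mitochondria, while genes all around the cycle are known targets of the CCAAT-binding Hap complex, which acts when cells respire.

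Expression was deposited as log2 RPM, where the values of each library add up to 1000000 on the linear scale (reads per 1000000) and a step of 1 is a 2-fold difference. Recovered depth ran from 209394 reads in the library of 120 min to 1737019, with a median of 804867, and that library stands apart: it listed 3261 genes, against 4325 to 5392 in the others. HIS3, LEU2, MET17 and URA3 were listed in 0 of 25 libraries, and the mating type a gene STE2 in 25. RPM is relative to all other transcripts: cytosolic ribosomal protein genes took 31.8% of the high-phosphate library but 13.4% of the library of 135 min and 3.90% of that of 345 min. Beside this, the median of 3109 genes listed in every library exceeded its high-phosphate level by 0.02 to 0.08 up to 105 min and by 0.26 to 0.44 later, on the log2 scale. The members were listed in every library except KGD1, which had no value at 120 min. Their values rested on 14 to 1245 reads, and the counting SD at each gene's lowest value was 0.17 (LSC1) to 0.39 (IDH2) on the log2 scale.

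Sorted by an early peak, the members fell into a pair of groups that follow their place in the cycle, with CIT1 the least clear case. Over the whole course without phosphate CIT1 correlated more with the 6 genes of the later steps (median r 0.72) than with ACO1, IDH1 and IDH2 (0.51). CIT1, ACO1, IDH1 and IDH2, the genes leading from oxaloacetate to 2-oxoglutarate, had a peak at 30 to 75 min without phosphate and were lower again by 120 min. CIT1 was back at its peak level at 135 min, while ACO1, IDH1 and IDH2 were still below their peaks at 150 min. The other 6 genes, which lead from 2-oxoglutarate back to oxaloacetate, stayed within 0.79 of their high-phosphate value up to 75 min. They were mostly higher from about 120 to 150 min on, but not in every sample. KGD1 at 210 min (5.44 log2 RPM), for example, lay below its sample of 15 min (5.45). In bulk RNA of this kind, a change in every cell and a change in the share of cells that express a gene cannot be told apart.

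The promoters of the early genes are shown because they are the sequences on which the Rtg and Hap factors are known to act, with KGD2 as a late gene and CIT2, the peroxisomal citrate synthase and textbook retrograde target, for comparison. Each is the stretch of 300 bases upstream of the 100 bases next to the start codon, 5′ to 3′ on the strand of the gene, in build R64, from the RefSeq genome. The positions are chrXIV:631162-631461 on the minus strand for CIT1, chrXII:737649-737948 on the minus strand for ACO1, chrXIV:559103-559402 on the minus strand for IDH1, chrXV:579850-580149 on the plus strand for IDH2, chrIV:755167-755466 on the minus strand for KGD2 and chrIII:122429-122728 on the minus strand for CIT2. Capitals mark the letters GTCAC or GTGAC, the core of the retrograde box on either strand, and CCAAT or ATTGG, the core bound by the Hap complex on either strand; in CIT2 a match of each kind overlaps.
CIT1: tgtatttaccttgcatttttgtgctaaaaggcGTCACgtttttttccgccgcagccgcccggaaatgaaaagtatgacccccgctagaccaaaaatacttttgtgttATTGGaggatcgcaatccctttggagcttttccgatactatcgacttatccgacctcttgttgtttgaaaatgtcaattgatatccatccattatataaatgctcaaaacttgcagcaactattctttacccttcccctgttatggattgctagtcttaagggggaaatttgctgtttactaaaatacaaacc
ACO1: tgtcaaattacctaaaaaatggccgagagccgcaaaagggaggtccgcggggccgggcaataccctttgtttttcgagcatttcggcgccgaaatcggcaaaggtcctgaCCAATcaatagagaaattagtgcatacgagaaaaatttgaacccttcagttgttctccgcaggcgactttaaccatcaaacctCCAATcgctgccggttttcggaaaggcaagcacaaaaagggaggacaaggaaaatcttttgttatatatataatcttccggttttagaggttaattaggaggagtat
IDH1: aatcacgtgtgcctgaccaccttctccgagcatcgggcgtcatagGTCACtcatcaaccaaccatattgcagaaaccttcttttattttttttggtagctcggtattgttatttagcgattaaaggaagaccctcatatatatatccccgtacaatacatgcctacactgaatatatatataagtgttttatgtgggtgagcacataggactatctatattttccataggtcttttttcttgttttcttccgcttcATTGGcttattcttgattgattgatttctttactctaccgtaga
IDH2: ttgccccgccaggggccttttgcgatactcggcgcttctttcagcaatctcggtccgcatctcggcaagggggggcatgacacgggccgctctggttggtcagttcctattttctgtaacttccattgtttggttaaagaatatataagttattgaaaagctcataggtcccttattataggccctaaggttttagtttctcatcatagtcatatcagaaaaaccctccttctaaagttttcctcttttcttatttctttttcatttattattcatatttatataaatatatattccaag
KGD2: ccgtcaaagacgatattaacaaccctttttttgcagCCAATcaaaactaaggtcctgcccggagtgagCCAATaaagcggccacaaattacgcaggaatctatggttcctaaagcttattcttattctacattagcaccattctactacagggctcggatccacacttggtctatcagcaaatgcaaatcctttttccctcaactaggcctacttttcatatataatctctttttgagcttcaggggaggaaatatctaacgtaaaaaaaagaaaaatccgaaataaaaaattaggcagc
CIT2: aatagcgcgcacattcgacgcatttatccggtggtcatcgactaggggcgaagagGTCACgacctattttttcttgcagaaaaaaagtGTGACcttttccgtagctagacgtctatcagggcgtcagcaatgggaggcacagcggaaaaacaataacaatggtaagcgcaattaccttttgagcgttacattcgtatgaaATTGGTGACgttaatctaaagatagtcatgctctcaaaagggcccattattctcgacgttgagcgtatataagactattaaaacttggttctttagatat

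GTCAC, on either strand, was found in the windows of 5 of 10 members (CIT1, IDH1, KGD1, LSC2 and FUM1), against 29.4% of 6001 promoter windows of the same length. Of the 4 early genes 2 held it, and of the other 6 genes 3 did. CIT2 held 3 matches, while no member held more than 1. CCAAT was found in 7 of 10 members, against 43.9% of windows, and 5 members held at least 2 matches, against 12.2%. By time course, CCAAT was in 3 of the 4 early genes and 4 of the other 6. The stress element core CCCCT, on either strand, was in 6 of 10 members (23.5% of windows), and CACGTG, the E-box bound by the phosphate regulator Pho4, was in IDH1 among the members (4.55% of windows). These matches are letters in a window and not shown binding sites.

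CIT1, citrate synthase (YNR001C, chrXIV:629622-631061, minus strand), condenses acetyl-CoA with oxaloacetate. Its level was 6.17 log2 RPM in high phosphate, then 6.83, 7.48, 7.65, 7.39 and 7.18 at 15, 30, 45, 60 and 75 min, 7.25 and 7.15 at 90 and 105 min, and 6.43 at 120 min. It peaked at 45 min, 2.79-fold above high phosphate, and its level in the shallow library of 120 min was 2.34-fold below that peak. ACO1, aconitase (YLR304C, chrXII:735212-737548, minus strand), turns citrate into isocitrate and also binds mitochondrial DNA. Its level was 7.11 log2 RPM in high phosphate, 7.46, 8.52, 9.22, 9.42 and 9.49 from 15 to 75 min, and 8.79, 7.97 and 7.81 at 90, 105 and 120 min. The peak at 75 min was 5.19-fold above high phosphate, and the level at 120 min was 3.19-fold below that peak.

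IDH1 (YNL037C, chrXIV:557920-559002, minus strand) and IDH2 (YOR136W, chrXV:580250-581359, plus strand) encode the subunits of the NAD-dependent isocitrate dehydrogenase, which makes 2-oxoglutarate; IDH2 carries the catalytic site and IDH1 the regulatory site. IDH1 stood at 5.19 log2 RPM in high phosphate, at 5.28, 6.47, 7.36, 7.03 and 7.34 from 15 to 75 min, and at 6.11, 6.24 and 6.16 from 90 to 120 min. IDH2 stood at 5.79 in high phosphate, at 6.01, 7.19, 7.62, 7.75 and 7.76 from 15 to 75 min, and at 6.87, 6.62 and 6.06 from 90 to 120 min. Both subunits had their largest step up between 15 and 30 min, of 1.19 (IDH1) and 1.18 (IDH2) on the log2 scale, and their largest step down between 75 and 90 min. The peak was 4.51-fold above high phosphate for IDH1, at 45 min, and 3.91-fold for IDH2, at 75 min.

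**Figure D1:**
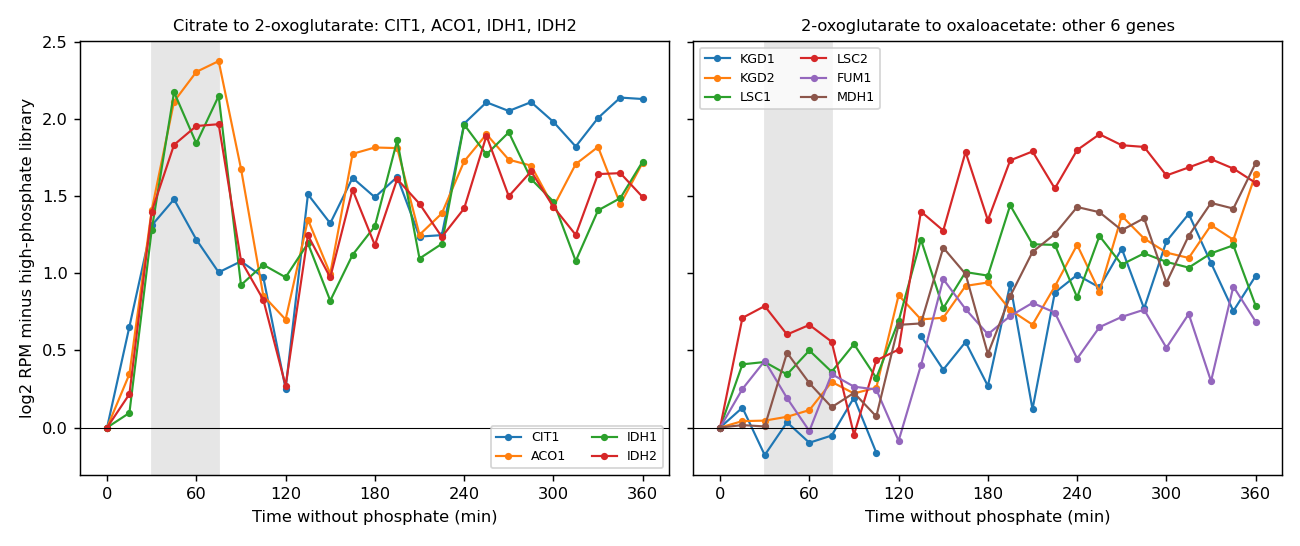
Difference in log2 RPM from the high-phosphate library (y axis) against time without phosphate in min (x axis), 1 point per library, for the early genes (left) and the other 6 (right); the grey band spans 30 to 75 min. The early genes are high in the band and lower at 120 min, with CIT1 back at its peak level at 135 min, while the other 6 stay low in it; KGD1 has no point at 120 min.

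This early peak was described with a rule chosen after the values were seen: the samples of 30, 45, 60 and 75 min all lie above those of 0, 15, 105 and 120 min. CIT1, ACO1, IDH1 and IDH2 met it, 4 of 10 members, against 2.01% of 4726 genes compared. A gene could lack a value at 105 or at 120 min. CIT1 met it by a narrow margin, with 7.18 at 75 min against 7.15 at 105 min. Without the library of 120 min the same 4 members met it, against 4.02% of genes. Ranked by the mean of 30 to 75 min minus the mean of the other samples, ACO1 was at rank 1 (1.58), IDH2 at rank 2 (1.46), IDH1 at rank 3 (1.33) and CIT1 at rank 11 (0.78) of the 95 genes that met the rule, the values being log2 differences. SDH4, a succinate dehydrogenase gene of the later steps, also met it, at rank 80 (0.29), without a value at 120 min.

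Genes around the early steps that are no members were looked at for the same course, DLD3 after its rank was seen. DLD3, which interconverts 2-hydroxyglutarate and 2-oxoglutarate and is a known retrograde target, was at rank 4, with 6.60 log2 RPM in high phosphate, 8.16 at 45 min and 6.59 at 105 min. CIT2 was at rank 5, with 5.79 in high phosphate, 7.71 at 60 min and 6.14 at 90 min. Like CIT1 it met the rule by a narrow margin, with 6.90 at 75 min against 6.88 at 15 min. PYC1, pyruvate carboxylase, which replenishes oxaloacetate, was higher sooner, at 7.13 in high phosphate and 9.07 at 15 min, and went from 9.32 at 45 min to 7.91 at 105 min and 6.65 at 120 min. It did not meet the rule, since its sample of 15 min was already high. The carrier gene DIC1 was also looked at and did not meet it, with 9.01 at 120 min against 8.98 at 60 min. Ranks 6 to 10 were held by YJL133C-A (1.07), HSP82 (1.03), SSA4 (0.85), MHT1 (0.83) and SSA2 (0.80), which are on none of the lists used here. Whether the genes that met the rule share a regulator was not tested.

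The late genes did not share the early peak. KGD1 (YIL125W, chrIX:122689-125733, plus strand) and KGD2 (YDR148C, chrIV:753675-755066, minus strand) encode subunits of the 2-oxoglutarate dehydrogenase complex, the oxidising and the succinyl-transferring enzyme. KGD1 was at 5.32 log2 RPM in high phosphate and at 5.45, 5.14, 5.36 and 5.22 at 15, 30, 45 and 60 min. At 315, 330, 345 and 360 min it was at 6.71, 6.39, 6.08 and 6.30. The late samples lie above all early ones, with a limma log2 difference of 1.08 (SE 0.19, adjusted p = 2.8e-05). KGD2 was at 6.26 in high phosphate, at 6.30, 6.30, 6.33 and 6.37 in the early window and at 7.36, 7.57, 7.47 and 7.90 in the late one. Its early samples lay close to high phosphate and below every late sample, and its rise was 1.25 (SE 0.16, limma adjusted p = 6.46e-08).

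LSC1 (YOR142W, chrXV:593057-594046, plus strand) and LSC2 (YGR244C, chrVII:978036-979319, minus strand) encode the alpha and beta subunits of succinyl-CoA ligase, the step that makes a nucleoside triphosphate directly. LSC1 was at 7.76 log2 RPM in high phosphate, at 8.16, 8.18, 8.10 and 8.25 in the early window and at 8.79, 8.88, 8.94 and 8.54 in the late one. LSC2 was at 6.51 in high phosphate, at 7.22, 7.29, 7.11 and 7.17 in the early window and at 8.19, 8.24, 8.18 and 8.09 in the late one. For both genes the windows do not overlap and every early sample is above the high-phosphate library. LSC1 rose by 0.61 (SE 0.13, limma adjusted p = 0.000298) and LSC2 by 0.98 (SE 0.14, limma adjusted p = 3.44e-07) on the log2 scale.

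FUM1 (YPL262W, chrXVI:47336-48802, plus strand) encodes fumarase, which hydrates fumarate to malate and is found in both mitochondria and cytosol. It was at 7.30 log2 RPM in high phosphate, at 7.55, 7.73, 7.49 and 7.27 in the early window and at 8.03, 7.60, 8.21 and 7.98 in the late one. The windows overlap at 330 min, and the rise of 0.45 (SE 0.15, limma adjusted p = 0.0124) was the smallest of those past the threshold. It misses the threshold without the sample of 60 min (adjusted p = 0.0568) or of 345 min (adjusted p = 0.0618), in a range of FUM1 values over the samples left out of 0.36 to 0.57. MDH1 (YKL085W, chrXI:279123-280127, plus strand) encodes mitochondrial malate dehydrogenase, which regenerates oxaloacetate. It was at 6.95 in high phosphate, at 6.96, 6.95, 7.43 and 7.24 in the early window and at 8.19, 8.40, 8.37 and 8.66 in the late one. All its late samples lie above all early ones, and the rise of 1.26 (SE 0.17, limma adjusted p = 1.28e-07) was the largest among the members.

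Of the early genes, CIT1 was higher again at the end of the course than in its early peak. Its late samples were at 7.996, 8.18, 8.31 and 8.30 log2 RPM, all above the 4 early ones, a rise of 0.86 (SE 0.18, limma adjusted p = 0.000154). ACO1 was at 8.82, 8.93, 8.56 and 8.83 in the late window, IDH1 at 6.27, 6.60, 6.68 and 6.91, and IDH2 at 7.04, 7.43, 7.44 and 7.29. These late values fall inside the range of the early window, which spans the low sample of 15 min and the peak. The differences were 0.13 (SE 0.35, limma adjusted p = 0.785) for ACO1, 0.08 (SE 0.33, adjusted p = 0.861) for IDH1 and 0.16 (SE 0.30, adjusted p = 0.686) for IDH2, and all 3 turn negative when samples are centred on their median gene or when the sample of 15 min is left out.

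**Figure D2:**
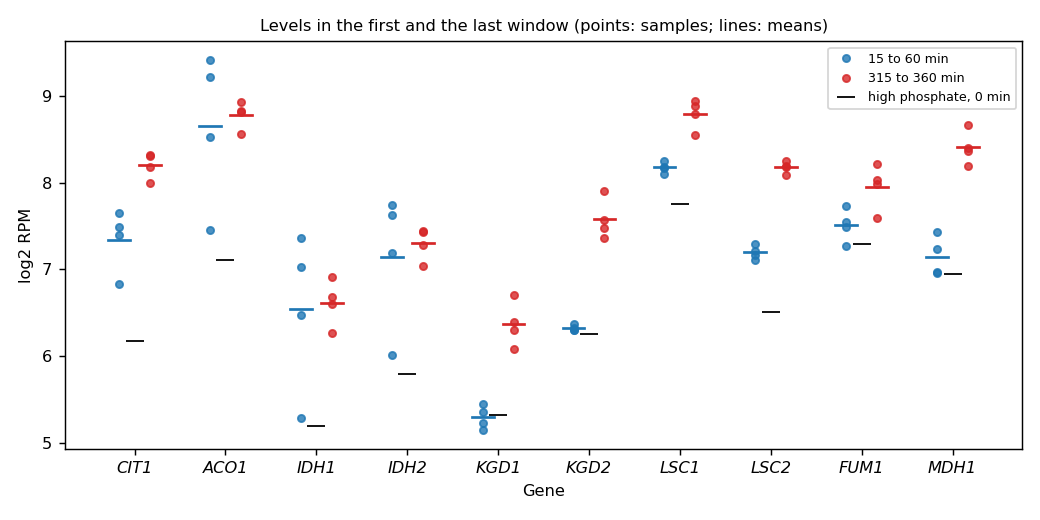
Level in log2 RPM (y axis) of each member (x axis) in the 4 samples of 15 to 60 min (blue points) and of 315 to 360 min (red points), with the means as coloured lines and the high-phosphate library as a black line. ACO1, IDH1 and IDH2 spread widely in the early window and overlap the late one, whereas KGD2, LSC2 and MDH1 have late samples well above all early ones.

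In all, 7 of 10 members were higher in the late than in the early window and 0 were lower (limma, adjusted p under 0.05), where 37.8% of 4535 genes tested were higher and 10.0% lower. The median change was 0.74 for the members and 0.33 for all genes. When the median gene of each sample was set to the same level, called median gene centring here, 5 members were higher (19.3% of genes) and 0 lower (21.5% of genes): CIT1 (0.50), KGD1 (0.72), KGD2 (0.89), LSC2 (0.62) and MDH1 (0.90). LSC1 (0.26, limma adjusted p = 0.118) and FUM1 (0.09, limma adjusted p = 0.675) then missed the threshold.

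Of the steps between neighbouring windows, only that from 75 to 120 to 135 to 180 min had members past the threshold. Over the same time the share of ribosomal protein reads fell, from 26.2% at 105 min to 7.94% at 150 min. Here 5 of 10 members were higher (19.8% of genes were) and 0 were lower (6.77% of genes): LSC2 by 1.09 (SE 0.14, limma adjusted p = 2.7e-07), CIT1 by 0.66 (SE 0.18), MDH1 by 0.55 (SE 0.17), LSC1 by 0.52 (SE 0.13) and FUM1 by 0.49 (SE 0.15). KGD2 (0.41, limma adjusted p = 0.0536) and KGD1 (0.46, limma adjusted p = 0.109) missed the threshold, and KGD2 passed it, at 0.56, without the library of 120 min. Without the sample of 150 min the count was 3 (CIT1, LSC1 and LSC2), and with median gene centring it was 1, LSC2 at 0.88. The 19.8% of genes given above belongs to neither of these settings. In this library of 120 min, KGD2, LSC1 and MDH1 were already above their samples of 105 min, by 0.60 for KGD2 and 0.59 for MDH1, while CIT1 was 0.72 below its own.

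No member passed the limma test in the other steps between neighbouring windows. Between 15 to 60 and 75 to 120 min the count was 0 of 10 (0.706% of genes in either direction), with 2 members at an unadjusted p under 0.05: KGD2, which was 0.34 higher, and LSC2, which was 0.33 lower. From 135 to 180 to 195 to 240 min it was 0 (0.882% of genes), with MDH1 at an unadjusted p under 0.05. From there to 255 to 300 min it was 0 (0.154% of genes), with CIT1 at an unadjusted p under 0.05 (0.54, SE 0.18, limma adjusted p = 0.240). In the last step it was 0 (0.0882% of genes), with 0 members at an unadjusted p under 0.05. Plain empirical Bayes settings also gave 0 in each of these steps.

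A smooth course of time was also fitted across the 24 samples without phosphate, and the result for ACO1, IDH1 and IDH2 changed with its flexibility. With a spline of 4 degrees of freedom, 7 of 10 members passed the limma F test (58.8% of genes did), and ACO1 (adjusted p = 0.831), IDH1 (0.560) and IDH2 (0.608) did not. The count was 5 with the sum taken without ribosomal protein genes, where FUM1 (limma adjusted p = 0.677) and LSC1 (0.0660) missed the threshold, and FUM1 (0.465) also missed it with samples centred on their median gene. Without the sample of 15 min IDH2 passed (limma adjusted p = 0.0414). With 6 degrees of freedom all 10 passed (54.6% of genes), with limma adjusted p of 0.000715 for ACO1, 0.00628 for IDH1 and 0.00304 for IDH2. Over 35 alternatives the adjusted p ran from those values up to 0.915 for ACO1, 0.692 for IDH1 and 0.789 for IDH2.

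The time at which the late genes and CIT1 reached the middle of their rise was read from a running median of 3 samples. The midpoint was 120 min for KGD2, 127 for LSC1, 133 for LSC2, 136 for FUM1, 142 for MDH1, 201 for KGD1 and 232 for CIT1. Leaving out a sample moved KGD2 between 118 and 151 min, MDH1 between 135 and 178, KGD1 between 131 and 216 and CIT1 between 162 and 238. The full order of the genes is therefore not resolved at a spacing of 15 min. LSC1 (122 to 134), LSC2 (131 to 146) and FUM1 (131 to 140) moved less. The range of CIT1 began after those of KGD2, LSC1, LSC2 and FUM1 ended, and it overlapped those of MDH1 and KGD1. ACO1, IDH1 and IDH2 have no such midpoint, since their early and late means are nearly equal.

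Against the single high-phosphate library, which gives no replicate check, members were counted whose window mean differed at least 2-fold, with all 4 samples in that direction. In the window of 15 to 60 min 4 of 10 members were above it (CIT1, ACO1, IDH1 and IDH2), where 2.47% of genes were. From 75 to 120 min 3 of 9 were (4.79% of genes), from 135 to 180 min 5 of 10 (13.9%), from 195 to 240 min 7 (18.9%), from 255 to 300 min 9 (19.1%) and from 315 to 360 min 9 (21.9%), and in no window was a member below it (0.528%, 0.402%, 6.85%, 6.10%, 6.19% and 6.18% of genes were, in the order of the windows). At the end FUM1 was the exception, at 1.58-fold. The others were 4.07-fold (CIT1), 3.19-fold (ACO1), 3.19-fold (LSC2), 2.84-fold (IDH2), 2.75-fold (MDH1), 2.68-fold (IDH1), 2.49-fold (KGD2), 2.07-fold (KGD1) and 2.05-fold (LSC1) above high phosphate. Scaled to the sum without ribosomal protein genes, the count of 9 was 4 (CIT1, ACO1, IDH2 and LSC2). The 21.9% of genes belongs to the unscaled values, and no share of genes is given here for the rescaled count. The share of all reads that fell on the 10 members was 0.101% in the high-phosphate library, then 0.212% in that of 75 min, 0.140% in that of 105 min and 0.260% ± 0.00861 (SD, n = 4) from 315 to 360 min.

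Levels between genes were compared per kb of coding length, as log2 of RPM per kb. In the late window LSC1 was highest, at 8.80 ± 0.17 (SD, n = 4), and MDH1 followed at 8.40 ± 0.19, with overlapping samples. LSC2 came next at 7.82 ± 0.06, below every MDH1 sample. CIT1 (7.67), ACO1 (7.56), FUM1 (7.40), IDH2 (7.15) and KGD2 (7.10) came after it, and in this stretch of the order each gene overlapped the next. IDH1 followed at 6.50 ± 0.27 and KGD1 was lowest at 4.76 ± 0.26, each apart from its neighbours. In high phosphate LSC1 (7.77) and MDH1 (6.94) also led and KGD1 (3.71) was last, while FUM1 (6.74) came next, ahead of LSC2 (6.14), ACO1 (5.89), KGD2 (5.78), CIT1 (5.65), IDH2 (5.64) and IDH1 (5.07). Subunits of the same complex thus differed in level, LSC1 being above LSC2, IDH2 above IDH1 and KGD2 above KGD1 in both conditions.

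**Figure D3:**
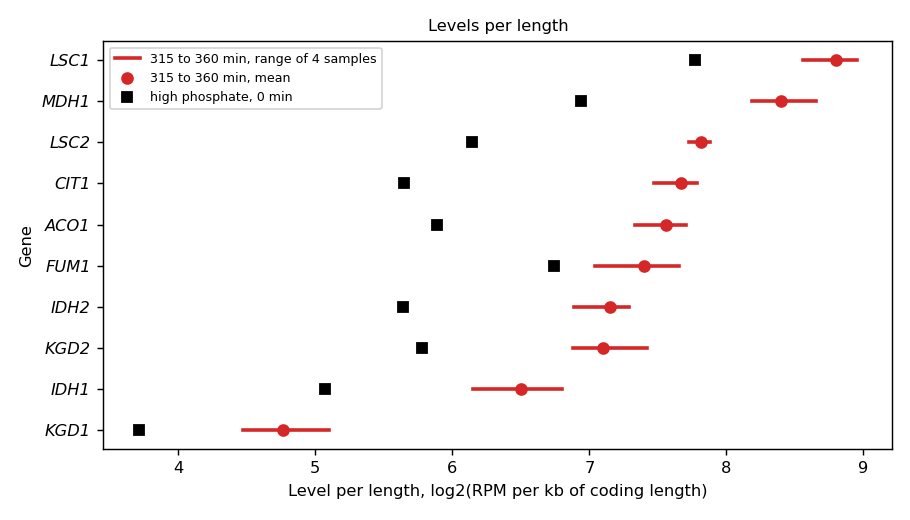
Level per length as log2 of RPM per kb of coding length (x axis) for each member (y axis): high-phosphate library (black squares) and the mean (red circles) and range (red bars) of the 4 samples of 315 to 360 min. LSC1 and MDH1 are highest and KGD1 is lowest in both conditions.

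Whether partner genes kept their ratio was tested for 8 pairs, with the log2 difference in each sample compared between 15 to 90 and 285 to 360 min (n = 6 each) in a two-sided exact permutation test, whose smallest possible p is 0.00216. For 3 pairs the difference changed. LSC1 minus LSC2 went from 1.13 ± 0.35 to 0.62 ± 0.10 (SD), a change of -0.52 (SE 0.15, exact permutation p = 0.00216, adjusted over the 8 pairs 0.00866). The early range of this pair was 0.89 to 1.84 and the late one 0.45 to 0.75, so the groups do not overlap, and the beta subunit gained on the alpha subunit. The early value of 1.84 came from the sample of 90 min, where LSC2 was at 6.46 log2 RPM. With a sample left out the change ran from -0.57 to -0.38.

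MDH1 was set against its paralogues, the cytosolic MDH2 and the peroxisomal MDH3. MDH1 minus MDH2 went from 0.31 ± 0.43 to 1.16 ± 0.45, a change of 0.85 (SE 0.25, exact permutation p = 0.00216, adjusted 0.00866). MDH1 minus MDH3 went from -0.50 ± 0.21 to 0.07 ± 0.31, a change of 0.57 (SE 0.15, exact permutation p = 0.00433, adjusted 0.0115). The mitochondrial form thus gained on both other forms. The samples of its difference to MDH3 overlapped between the groups. Those of its difference to MDH2 were barely apart, with early samples up to 0.71 and late ones from 0.73. The highest late difference to MDH2, 1.84, came from the sample of 315 min, where MDH2 was at 6.36 log2 RPM.

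No change past the threshold was found for the other pairs given here. The change was -0.06 (SE 0.11, exact permutation p = 0.587, adjusted 0.670) for IDH1 minus IDH2, -0.12 (SE 0.16, exact p = 0.459, adjusted 0.670) for KGD1 minus KGD2 and 0.15 (SE 0.24, exact p = 0.552, adjusted 0.670) for CIT1 minus CIT2. KGD1 minus IDH1, the successive dehydrogenases, changed by 0.97 (SE 0.41, exact p = 0.0476, adjusted 0.0952), and by 1.26 (adjusted 0.0216) without the sample of 15 min. How reads that map to several places were treated is not given in the sources used here. The coding sequences were 73.2% identical for CIT1 and CIT2, with a longest identical run of 21 bases, and 55.1% to 60.3% for LSC1 and LSC2, IDH1 and IDH2, and MDH1 with MDH2 or MDH3.

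**Figure D4:**
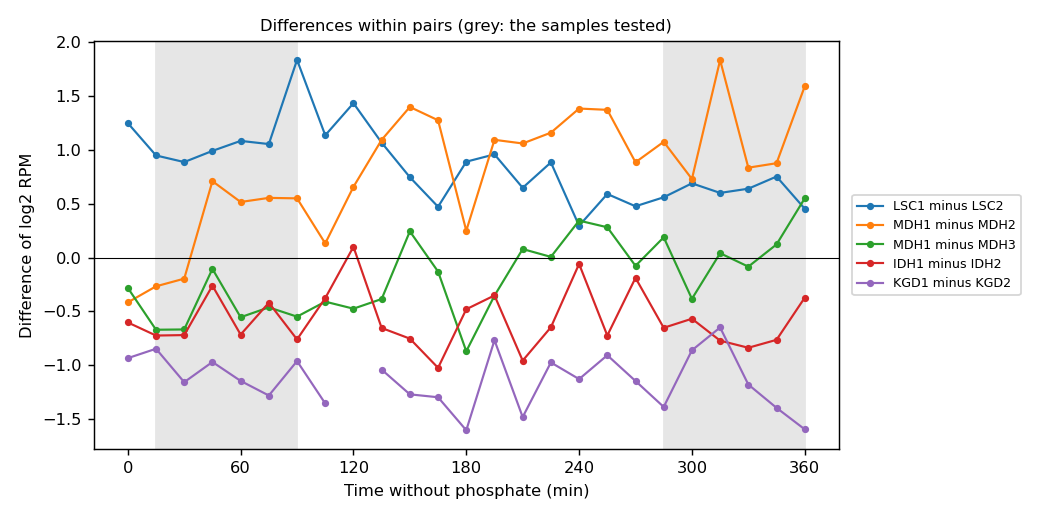
Difference in log2 RPM between the genes of a pair (y axis) against time without phosphate in min (x axis), 1 point per library; grey bands mark the samples tested, 15 to 90 and 285 to 360 min. LSC1 minus LSC2 is lower and both MDH1 differences are higher on the right, while IDH1 minus IDH2 and KGD1 minus KGD2 lie at similar values on both sides.

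Correlations across the 24 samples without phosphate (23 for KGD1), which share libraries and a single course, separate ACO1, IDH1 and IDH2 from the late genes and place CIT1 nearer to the late genes. ACO1, IDH1 and IDH2 correlated with each other at Pearson r of 0.82 to 0.89. The 6 late genes correlated with each other at 0.50 to 0.89, with KGD2 and MDH1 the most alike. Between these groups r was 0.01 to 0.37. CIT1 had 0.48 to 0.64 (median 0.51) to ACO1, IDH1 and IDH2 and 0.59 to 0.79 (median 0.72) to the other 6, and was most like KGD1 and least like ACO1. Among 3102 genes compared, those most like the mean of the 6 late genes were TDH1, GAP1, PRC1 and PEP4, each at r = 0.98; TDH1 encodes a glycolytic dehydrogenase, GAP1 the general amino acid permease, and PRC1 and PEP4 vacuolar proteases. The gene most like the mean of the 4 early genes, YJL133C-A, reached r = 0.71. Both of these means were formed after the courses were seen. Genes most like the mean course of all 10 members were AIM2 (r = 0.92), PMC1 (0.91), ATP1 (0.91), PHO8 (0.91), SOD2 (0.91), LAT1 (0.90), ISC10 (0.90) and EGT2 (0.90). ATP1 encodes a subunit of the mitochondrial ATP synthase, SOD2 the mitochondrial superoxide dismutase and LAT1 the acetyl-transferring subunit of pyruvate dehydrogenase.

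**Figure D5:**
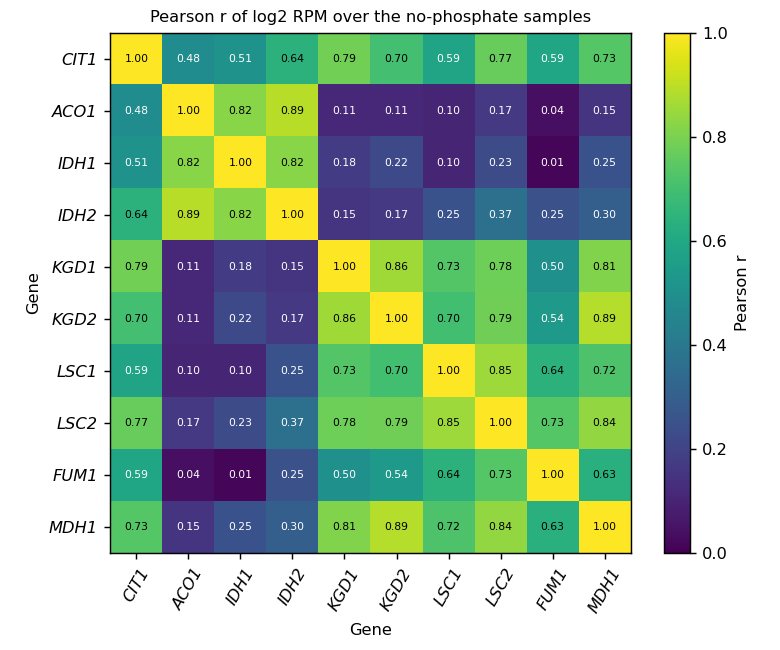
Pearson r of log2 RPM between each pair of members (both axes) over the 24 samples without phosphate, 23 for pairs with KGD1, with colour from 0 to 1. ACO1, IDH1 and IDH2 form a block of 0.82 to 0.89 with values of at most 0.37 to the 6 late genes. CIT1 has higher values to all 6 late genes than to ACO1 and IDH1. Its value to IDH2 (0.64) exceeds those to LSC1 and FUM1 (0.59 each).

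Other genes of the cycle and its surroundings were read from lists, with the same limma contrast of 315 to 360 against 15 to 60 min. The backgrounds are those of the members: 37.8% of genes higher and 10.0% lower. With median gene centring they are 19.3% higher and 21.5% lower, and counts with centring in these lists are to be read against those. Of 10 accessory genes, mainly subunits and assembly factors of succinate dehydrogenase, 9 were higher and 0 lower, with a median of 1.11, and 7 were higher with median gene centring. The iron-sulfur subunit SDH2 rose by 1.72 (SE 0.26, adjusted p = 2.72e-06), the membrane anchor SDH4 by 1.71 (SE 0.20, adjusted p = 1.57e-08), and the assembly factor ACN9 was 0.63 higher without passing (SE 0.39, adjusted p = 0.189). SDH2 was thinly covered: it was listed in 20 libraries, had no value at 60 min and rested on 15 to 19 reads in its early samples. Among 12 isoenzyme genes 8 were tested, 6 were higher and 0 lower, and 1 was higher with centring. YLR164W, a homologue of SDH4, rose by 2.56 (SE 0.47, adjusted p = 0.000128) and YJL045W, a homologue of SDH1, by 0.84 (SE 0.25, adjusted p = 0.0055), and MDH2 was at 0.16 (SE 0.20, adjusted p = 0.511).

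Entry of carbon into the cycle was mixed. Of 8 genes of the pyruvate dehydrogenase complex and its regulators 6 were higher and 0 lower (4 higher and 1 lower with centring). The kinases PKP1, at 1.97 (SE 0.26, limma adjusted p = 2.02e-07), and PKP2, at 1.69 (SE 0.29, adjusted p = 1.19e-05), which inactivate the complex, rose most, while its subunit PDB1 was at -0.12 (SE 0.12, adjusted p = 0.441). Of 7 anaplerotic and glutamate genes tested of 9, 4 were higher and 0 lower (3 higher and 1 lower with centring), among them the glutamate dehydrogenases GDH3, at 2.42 (SE 0.27, adjusted p = 6.68e-09), and GDH2, at 1.90 (SE 0.18, adjusted p = 1.57e-10). GDH1, the main biosynthetic form on glucose, was at -0.02 (SE 0.14, adjusted p = 0.914).

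Of 11 mitochondrial carriers 10 were tested, 2 were higher and 2 lower, with a median of -0.15. Centring gave 2 higher (19.3% of genes) and 5 lower (21.5% of genes). The pyruvate carrier subunit FMP43 rose by 1.42 (SE 0.28, limma adjusted p = 7.37e-05) and the citrate transporter CTP1 by 1.37 (SE 0.23, adjusted p = 5.75e-06), while FMP37, another subunit of the pyruvate carrier, was at -0.02 (SE 0.21, adjusted p = 0.956). The 2 that fell, named after their values were seen, were the citrate and 2-oxoglutarate carrier YHM2, at -0.89 (SE 0.14, adjusted p = 3.82e-06), and the pyruvate carrier subunit YHR162W, at -0.50 (SE 0.12, adjusted p = 0.00127).

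The regulators themselves were thinly covered. RTG1 was listed in 0 libraries and RTG3, in 21, was not tested. Of 6 retrograde regulators tested 4 were higher and 0 lower (1 with centring). The negative regulator MKS1 rose by 1.14 (SE 0.21, limma adjusted p = 3.05e-05) and LST8 by 0.56 (SE 0.22, adjusted p = 0.0343), and GRR1 was at 0.39 (SE 0.22, adjusted p = 0.138). Of 7 regulators of respiratory genes 3 were tested and 1 was higher (0 with centring). HAP3 rose by 0.51 (SE 0.18, adjusted p = 0.0203), HAP1 was at 0.56 (SE 0.27, adjusted p = 0.0881) and the kinase SNF1 at -0.02 (SE 0.17, adjusted p = 0.918). HAP4, the activating subunit, was listed in 10 libraries and not tested.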

How the data were processed

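RNA from 25 yeast samples was measured by sequencing. Bowtie and build R64 are named in the submitters' processing notes. Not given in the sources used here are its version, the counter, strand and the handling of reads with several matches. The authors deposited log2 values, 1 column per sample. Taken back to the linear scale they sum to 1000000, so they are log2 RPM, not ratios to 0 min, although the design text speaks of such a normalization. Of 6701 lines, 51 carry no gene name. The lowest value per column was taken as 10 reads: 94.88% to 97.36% of values below 400 reads were then whole within 0.01. Depth and counting SD rest on this, cover counting error only, and no count model was run.

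limma 3.58.1 in R 4.3.3 (empirical Bayes with trend and robust settings) was fitted to the 6 window means of all genes with at least 3 values per window, 4535 genes, with Benjamini-Hochberg adjustment over them and a threshold of 0.05. The scripts were tested on simulated data. Windows of 3 or 6 samples, other scalings, pseudocounts, filters, weights and leaving out each sample were tried. Members and lists were chosen with earlier results of these data known. All members are named, and of each list the genes with the largest changes and with the smallest one, plus the tested pairs and the 8 genes most like the members; 1 of the 8 pairs is not reported here.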

Additional observations from a re-analysis of the deposited data

Results flagged for a closer look

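Within windows of 4 samples, 59 groups of member values were examined for a sample that lies far from the other 3, and 4 were found, where chance gives about 1 in 20. CIT1 was at 6.43 log2 RPM at 120 min, against 7.15 to 7.25 in the rest of its window, and KGD2 was at 7.11 at 120 min, against 6.48 to 6.55. Both lie in the library of lowest depth. IDH1 was at 7.34 at 75 min, the end of its early peak, against 6.11 to 6.24 from 90 to 120 min. KGD1 was at 5.44 at 210 min, against 6.20 to 6.31.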

How the results depend on the processing

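The count of 7 members higher at the end of the course was 5 to 7 under other processing and 6 to 7 with a sample left out; FUM1 also missed the threshold with windows of 3 samples (0.34, limma adjusted p = 0.0992). Members higher from 75 to 120 to 135 to 180 min numbered 5, but 1 with median gene centring, 1 with the sum taken without ribosomal protein genes, and 3 to 6 with a sample left out. From 195 to 240 to 255 to 300 min, array weights gave 1 (CIT1) in place of 0. Members at least 2-fold above high phosphate at the end numbered 9, and 4 with the sum without ribosomal protein genes, 6 with median gene centring and 8 to 9 with a sample left out. The shares of genes given for this count (21.9%) and for the step to 135 to 180 min (19.8%) belong to the unscaled values of all samples. Changed pairs numbered 3, and 0 with 4 against 4 samples (adjusted p 0.0762 for the 3), where few splits exist, and 3 to 4 with a sample left out. The small late minus early differences of ACO1, IDH1 and IDH2, none past the threshold, changed sign: to -0.23, -0.28 and -0.20 with centring, to -0.27, -0.32 and -0.24 without ribosomal protein genes, and to -0.27, -0.34 and -0.22 without the sample of 15 min. ACO1 was also at -0.068 with windows of 6 samples, and IDH1 at -0.020 with array weights and at -0.024 without the sample of 360 min. With a sample left out they ran up to 0.38 (ACO1), 0.35 (IDH1) and 0.36 (IDH2). Beyond these the cause was not tested. KGD1 could not be tested among genes listed in all 24 samples. No paired analysis was possible because each time had 1 library of a single course. Depth limits KGD1 most, which was under the floor of 10 reads at 120 min, then IDH2 and IDH1, at 14 and 15 reads in their lowest samples.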
